A study of Sus scrofa with 13 samples.

Results

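The nuclear genes of the respiratory chain were described in pig liver before and after ischemia–reperfusion. They are the rows of the count table whose gene symbol starts with NDUFA, NDUFB, NDUFC, NDUFS or NDUFV, with UQCR, with COX4 to COX8 or with ATP5, together with SDHA, SDHB, SDHC and SDHD. The rule used names and no measured value, and it found 82 of the 35670 rows, of which 78 had enough reads to be tested. Bulk RNA-seq was done on 13 liver libraries, namely 2 from baseline livers, 3 from ischemic controls, 4 from livers with arterial infusion and 4 from livers with portal infusion. The baseline biopsies were taken before any ischemia or cells. The paper lists no separate baseline animals, so these biopsies may come from pigs that were also sampled at 6 h. All livers of the other 3 groups had 45 min of warm ischemia, with the hepatic artery, the portal vein and the hepatic veins clamped, and were sampled at 6 h of reperfusion. The ischemic controls received no cells, and the infused livers received 3 M (M for mega) mesenchymal stromal cells of human bone marrow (BM-MSCs) per kg of body weight by way of either the hepatic artery or the portal vein. The animals were female Yorkshire pigs, and no untouched liver was sampled at 6 h, so that ischemia, reperfusion, surgery and elapsed time cannot be told apart in a comparison with baseline.

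The respiratory chain sits in the inner mitochondrial membrane. Complexes I and II feed electrons from NADH and succinate to ubiquinone, complex III passes them to cytochrome c and complex IV to oxygen, and complex V (ATP synthase) uses the proton gradient built on the way to make ATP. Most subunits are encoded in the nucleus and imported, while a small catalytic set is encoded in the mitochondrial genome, so that a working complex needs both. In ischemic tissue the chain stops for want of oxygen, and the return of oxygen to a reduced chain is known as a source of reactive oxygen species.

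Libraries held from 18975413 to 35949178 counted reads. Ischemic control 2, arterial infusion 1, portal infusion 1 and portal infusion 4 stood apart from the other 9 libraries on the first principal component of the 500 most variable genes outside the rule, which held 62.8% of their variance, with scores from 26.28 to 93.63 against −37.03 to −11.87. They came from 3 of the 4 groups. Hepatocyte markers were abundant in every library (ALB between 302897 and 2160635 reads). In these bulk samples, fewer cells of a type and less RNA per cell cannot be told apart.

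The 2 baseline livers held the lowest levels of the nuclear respiratory chain genes of all 13 libraries. The summed normalized count of the 78 genes was 100580 and 91116 at baseline. It was 148380, 305990 and 116710 in ischemic controls 1 to 3. Arterial infusions 1 to 4 had 249980, 155470, 125950 and 111180. Portal infusions 1 to 4 had 211200, 144840, 124490 and 179680. No liver at 6 h overlapped the baseline pair, and the 4 highest sums were those of the 4 libraries that stood apart. The sum is carried by the most abundant genes, so each gene was also set against its own mean over the 13 libraries. That scale was log2 CPM, with reads scaled to library totals adjusted by edgeR's TMM factors. On it the median gene was lowest at baseline, at −0.58 and −0.78, and lay between −0.29 and 0.88 in the other 11 libraries. At baseline 65 and 69 of the 78 genes were below their own mean.

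**Figure D1:**
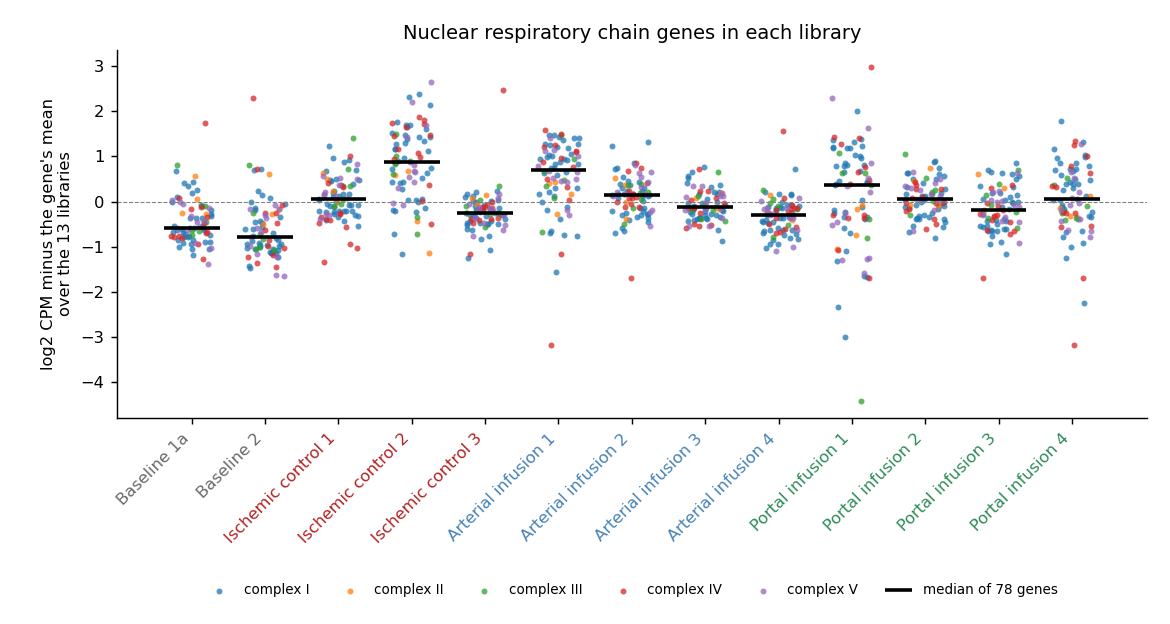
Deviation of each of the 78 genes (points, coloured by complex) from its own mean over the 13 libraries, in log2 CPM, with the median of each library as a bar. The 2 baseline libraries have the lowest medians (−0.58 and −0.78), and the points of portal infusion 1, ischemic control 2, arterial infusion 1 and portal infusion 4 are the most widely spread.

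Gene by gene, 31 of the 78 genes (39.7%) were higher in every one of the 11 livers at 6 h than in both baseline livers, where 3.3% of all 16481 genes tested were. The opposite order was found for 0 of the 78 and for 3.97% of all genes. Without the 4 libraries that stood apart, 37 of 78 were higher in all 7 remaining livers (5.1% of all genes), and 1, NDUFA4L2, was lower in all of them (5.9% of all genes). The 31 genes held small subunits of the membrane arm of complex I (such as NDUFA1 and NDUFB7) and of the membrane part of complex V (such as ATP5ME and ATP5MK). They also held core subunits (NDUFS3, NDUFV2), further accessory subunits (such as NDUFA6 and NDUFA7) and assembly factors (NDUFAF3, NDUFAF8) of complex I. Small subunits of complex III (UQCR10, UQCRB, UQCRQ) and 7 subunits of complex IV (COX4I1, COX5A, COX5B, COX7A2, COX7B, COX7C, COX8A) were among them too. SDHB was the complex II gene among them. This order was looked at after the data were seen, and the groups have different treatments within the 11 livers.

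Ischemic controls were compared with baseline to see what 45 min of ischemia and 6 h of reperfusion without cells went with. Of the 78 genes 70 were higher and 8 lower in controls, and the median log2 fold change was 1.01, against 0.0048 over all genes tested, of which 50.2% were higher. None passed the test: 0 of 78 had an adjusted p below 0.05 by edgeR's quasi-likelihood test (background 0%), the smallest adjusted p being 0.978. An unadjusted p below 0.05 was found for 20 of the 78 genes, all higher in controls, against 4.37% of all genes in either direction and 3.16% in that one. Groups did not overlap for 51 genes that were higher (14.8% of all genes) and for 2 that were lower, NDUFA4L2 and NDUFAF7 (16.3%). Ischemic control 2 decided the size and not the direction. Without it 73 of 78 genes were higher, the median was 0.52, and 0 of 78 had an unadjusted p below 0.05, against 1.83% of all genes. Without all 4 libraries that stood apart, 73 were higher, the median was 0.51, and 20 had an unadjusted p below 0.05, against 1724 of 15544 genes in all. With all 11 livers at 6 h in place of the controls, 69 were higher, the median was 0.96 and 22 had an unadjusted p below 0.05 (4.78% of all genes).

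**Figure D2:**
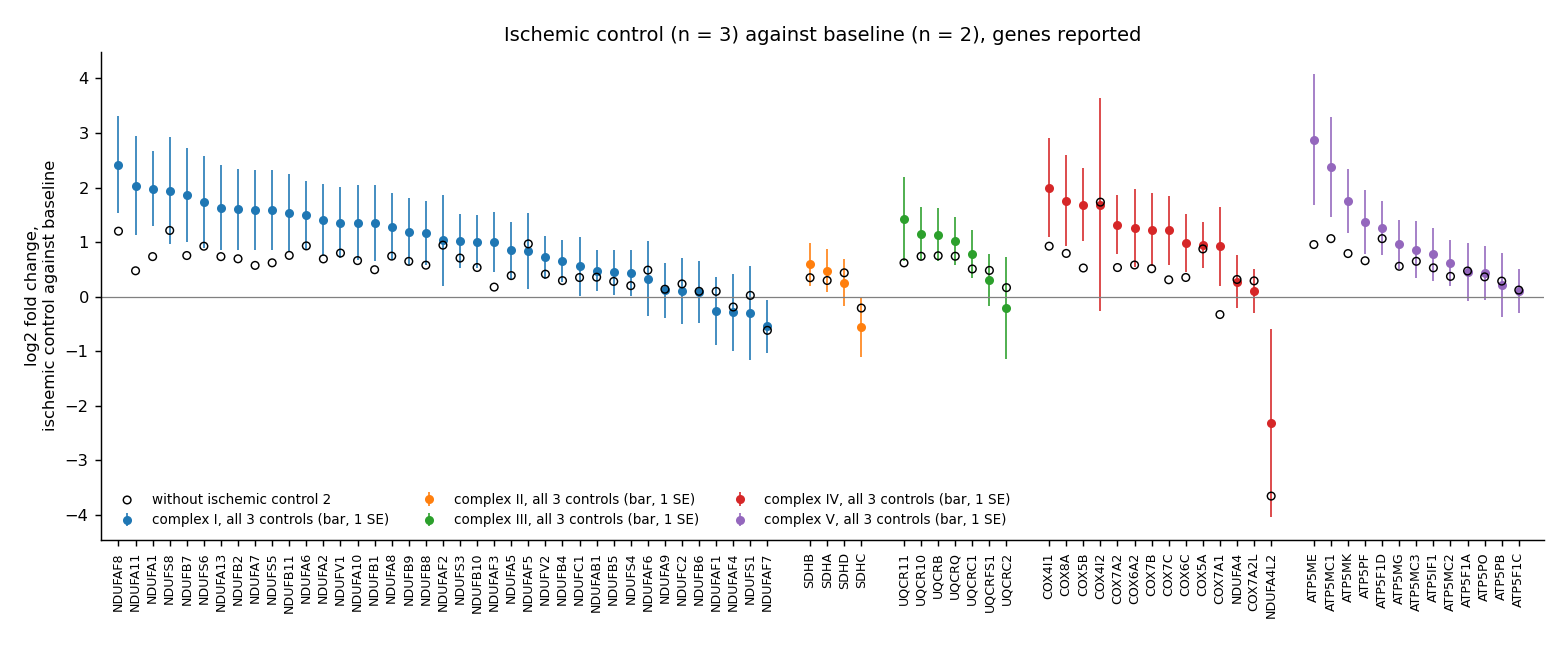
Log2 fold change of the genes reported here between ischemic controls (n = 3) and baseline (n = 2) by complex, with bars of 1 SE, and as open circles the same without ischemic control 2. Most filled points lie above 0, ATP5ME is the highest at 2.88, and most open circles lie above 0 and nearer to it.

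Complex I, the NADH dehydrogenase, had 40 genes tested, 35 higher and 5 lower in controls than at baseline, with a median log2 fold change of 1.02. Its 26 accessory subunits, which surround the catalytic core, were all higher (median 1.31), and its 6 core subunits were higher in 4 (median 0.87). Its 8 assembly factors, which help build the complex and are not part of it, were higher in 5 (median 0.58). The gap between accessory and core subunits leaned on control 2. Their median deviations from each gene's own mean were 1.22 and 0.68 in control 2, and −0.28 and −0.11 in control 3. The accessory subunit NDUFA1, a small membrane protein encoded on chromosome X (98219717 to 98223873, Sscrofa11.1), had 280.8 and 333.4 normalized counts at baseline. It had 482.6, 2751 and 515.3 in ischemic controls, which are all above baseline with control 2 far above the other controls. The log2 fold change was 1.98 ± 0.69 (SE), with an unadjusted p of 0.0116 and an adjusted p of 0.978 by edgeR's test, and it was 0.73 without control 2. The assembly factor NDUFAF8 (chromosome 12, 1517304 to 1519478) had 214.4 and 163.5 normalized counts at baseline and 344.1, 2296 and 506.6 in controls. Its log2 fold change was 2.42 ± 0.89 (SE, unadjusted p = 0.0157 and adjusted p = 0.978 by edgeR's test), and 1.20 without control 2. All 3 controls again lay above both baseline livers.

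The catalytic core of complex I was mixed. NDUFV1, which binds NADH, had 1514 and 1199 normalized counts at baseline against 2323, 6040 and 2295 in controls (log2 fold change 1.36 ± 0.65, SE, and 0.80 without control 2). NDUFS1, the large iron-sulfur subunit (chromosome 15, 109413726 to 109451813), had 1897 and 1975 at baseline and 2712, 765.2 and 1124 in controls, so that control 1 was above baseline and controls 2 and 3 below it. Its log2 fold change was −0.31 ± 0.86 (SE), 0.02 without control 2 and −1.06 without control 1. NDUFS1 was lowest of all in portal infusion 1 (162.4) and arterial infusion 1 (418.5), where NDUFV1 was high (5227 and 4366). Subunits of the same complex therefore stood on opposite sides of the other livers in these libraries.

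Complex II, succinate dehydrogenase, which is also an enzyme of the citric acid cycle, had the lowest median of the 5 complexes, 0.36, with 3 of 4 genes higher in controls. SDHA, the flavoprotein that oxidizes succinate (chromosome 16, 79838442 to 79862956), had 4164 and 3381 normalized counts at baseline and 4569, 6849 and 4490 in controls (log2 fold change 0.48 ± 0.39, SE, and 0.29 without control 2 or without baseline 2). SDHB, the iron-sulfur subunit, had 1919 and 1697 at baseline and 2241, 3772 and 2255 in controls (0.59 ± 0.40, SE, and 0.34 without control 2). Both catalytic subunits were higher in every control than in either baseline liver. The membrane anchor SDHC had 1701 and 1798 at baseline and 1736, 555.1 and 1218 in controls (−0.56 ± 0.55, SE, and −0.21 without control 2). The anchor SDHD had 2422 and 2626 against 3986, 2294 and 2685 (0.25 ± 0.43, SE, 0.44 without control 2 and −0.051 without control 1). For both anchors the groups overlapped, and control 2 held the lowest value of the 5 livers.

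Complex III, the cytochrome bc1 complex, had 6 of 7 genes higher in controls (median 1.02). Its 4 small subunits UQCR10, UQCR11, UQCRB and UQCRQ were all higher without overlap, with log2 fold changes between 1.02 and 1.42. The core protein UQCRC1 had 3562 and 2378 normalized counts at baseline and 4675, 7293 and 3585 in controls (0.78 ± 0.43, SE, 0.51 without control 2 and 0.48 without baseline 2). The core protein UQCRC2 had 1968 and 2025 at baseline and 2918, 730.2 and 1450 in controls (−0.21 ± 0.94, SE, 0.16 without control 2 and −0.89 without control 1). The paired core proteins thus differed in which libraries were high, and UQCRC2 was at 56.64 in portal infusion 1, where UQCRC1 was at 5500. UQCRFS1, the Rieske iron-sulfur protein, had 2384 and 2186 at baseline against 4079, 2135 and 2149 in controls (0.30 ± 0.47, SE, −0.13 without control 1, and between 0.20 and 0.48 without any other liver of the 5), with control 1 alone above baseline.

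Complex IV, cytochrome c oxidase, had 13 of 14 genes higher in controls and, with all 3 controls, the highest median, 1.22. That rank leaned on control 2, where the median deviation of complex IV genes from their own means was 1.31, against −0.36 in control 1. COX4I1, the largest nuclear subunit in its common form, had 3891 and 3809 normalized counts at baseline. It had 6906, 33310 and 7389 in ischemic controls. Arterial infusion livers had 27970, 9498, 6664 and 6086, and portal infusion livers 28390, 6614, 5723 and 24150. All 11 livers at 6 h were above baseline, with the 4 libraries that stood apart above the rest. The log2 fold change of controls against baseline was 2.00 ± 0.90 (SE, unadjusted p = 0.0431 and adjusted p = 0.978 by edgeR's test), and 0.92 without control 2. COX5A had 1253 and 919.9 at baseline and 2293, 2427 and 1604 in controls (0.95 ± 0.43, SE), and 0.87 without control 2, so that its difference did not rest on that library. COX5B (chromosome 3, 56630297 to 56632107) had 2407 and 2078 at baseline and 3151, 16030 and 3160 in controls (1.68 ± 0.67, SE), and 0.52 without control 2.

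Several complex IV subunits exist in forms named for the tissue where they prevail. The liver form COX6A1 (chromosome 14, 40408600 to 40410810) was at 0 reads in all 13 libraries, which allows up to 3 reads in each, while the heart and muscle form COX6A2 carried reads in all of them, with 222.2 and 143.5 normalized counts at baseline and 181.2, 819.5 and 354.8 in controls. The muscle markers were at or near 0 (ACTA1 0 to 2, MYH7 0 to 3, CKM 0 to 9 and TNNT1 0 to 16 reads). How reads of related genes were shared out in counting was not tested. COX7A1, also a heart and muscle form, had 415.8 and 454.7 at baseline and 268.2, 1886 and 409 in controls, and its liver counterpart COX7A2 had 1108 and 1012 against 1417, 5153 and 1583. COX7A2 was higher in each control than at baseline (log2 fold change 1.32 ± 0.54, SE, and 0.53 without control 2), and COX7A1 was so in control 2 alone (0.92 ± 0.72, SE, and −0.33 without that library). COX8A, the common form of the smallest subunit, had 1263 and 1073 at baseline and 1607, 8290 and 2353 in controls (1.76 ± 0.83, SE, and 0.79 without control 2).

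The forms known to respond to low oxygen had few reads. COX4I2, which can replace COX4I1, had 6 and 8 reads at baseline, 13, 12 and 45 in controls, 1, 0, 10 and 16 after arterial infusion and 0, 3, 0 and 0 after portal infusion. NDUFA4L2, the hypoxia-inducible relative of the complex IV subunit NDUFA4 (chromosome 5, 22540482 to 22548418), had 71 and 80 reads at baseline and 6, 19 and 8 in controls, and between 0 and 119 in infused livers with the highest in portal infusion 1. Its log2 fold change of controls against baseline was −2.32 ± 1.73 (SE, adjusted p = 0.978 by edgeR's test, and −3.66 without control 2), and it was lower in all 3 controls. NDUFA4 itself, long listed under complex I, had 1834 and 1711 normalized counts at baseline and 2485, 2128 and 1822 in controls (0.27 ± 0.48, SE, and 0.12 without control 1).

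Complex V, the ATP synthase, had all 13 genes tested higher in controls (median 0.86), and also without control 2 and without the 4 libraries that stood apart. With all 3 controls ATP5ME, ATP5MC1 and ATP5MK, of its Fo (membrane) part, stood highest, and other Fo genes differed less. That order rested on control 2. Without it ATP5F1D, of the catalytic head and not of Fo, stood at 1.06, above ATP5ME (0.95) and ATP5MK (0.79). Mean normalized counts at baseline and in controls were 1939 and 3015 for ATP5MC2, 2723 and 4976 for ATP5MC3 and 1484 and 2924 for ATP5MG. The mean of the peripheral stalk gene ATP5PF, outside Fo's small membrane subunits and ring, differed more than these, at 897.1 and 2379. This leaned on control 2, since ATP5PF was at 1589, 4367 and 1179 in the 3 controls, against 5577, 6586 and 2765 for ATP5MC3. ATP5ME, the small subunit e, had 631.7 and 543.3 normalized counts at baseline and 1236, 11260 and 991.5 in controls. After arterial infusion it had 4629, 1484, 1128 and 805.8, and after portal infusion 9225, 1045, 877.8 and 4358, all above baseline. Its log2 fold change of controls against baseline was the largest of the 78, at 2.88 ± 1.20 (SE, unadjusted p = 0.0308 and adjusted p = 0.978 by edgeR's test), and 0.95 without control 2. DESeq2 fitted to these 5 libraries alone gave it an adjusted p of 0.0477 with a log2 fold change of 2.99, the 1 gene called of the 79 in that fit, and the 1 called in the alternatives that were run. That fit called 166 of 23625 genes in all. ATP5MK, subunit k, had the smallest unadjusted p of the 78 (0.00939, adjusted p = 0.978 by edgeR's test), with 879.3 and 769 at baseline and 1346, 5814 and 1442 in controls (1.76 ± 0.59, SE, and 0.79 without control 2). ATP5MC1, a c subunit of the proton-driven ring, had 1628 and 1109 at baseline and 3413, 16580 and 2182 in controls (2.38 ± 0.92, SE, and 1.06 without control 2).

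The 3 genes tested of the catalytic head of the synthase differed among themselves. ATP5F1D, its delta subunit, named after its values were seen, had 2541 and 1529 normalized counts at baseline and 4368, 6544 and 3960 in controls, all 3 above baseline (log2 fold change 1.26 ± 0.50, SE, unadjusted p = 0.0225 and adjusted p = 0.978 by edgeR's test, and 1.06 without control 2). ATP5F1C, the gamma subunit, stood at 0.10 ± 0.40 (SE). ATP5F1A, its alpha subunit, had 9714 and 9308 normalized counts at baseline and 17420, 13250 and 8304 in controls, with control 3 below baseline (log2 fold change 0.45 ± 0.53, SE, 0.14 without control 1 and 0.71 without control 3). ATP5IF1, which blocks the reverse reaction in which the synthase spends ATP, had 516 and 477.9 at baseline and 753.9, 1178 and 646.8 in controls, all 3 above baseline (0.77 ± 0.49, SE). ATP5F1B is not analysed here. In exact two-sided permutation tests on log2(normalized count + 1) no gene of the 78 could go below 0.1 between 3 controls and 2 baseline livers. NDUFV1 and COX5A were among the genes at that smallest p of 0.1.

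**Figure D3:**
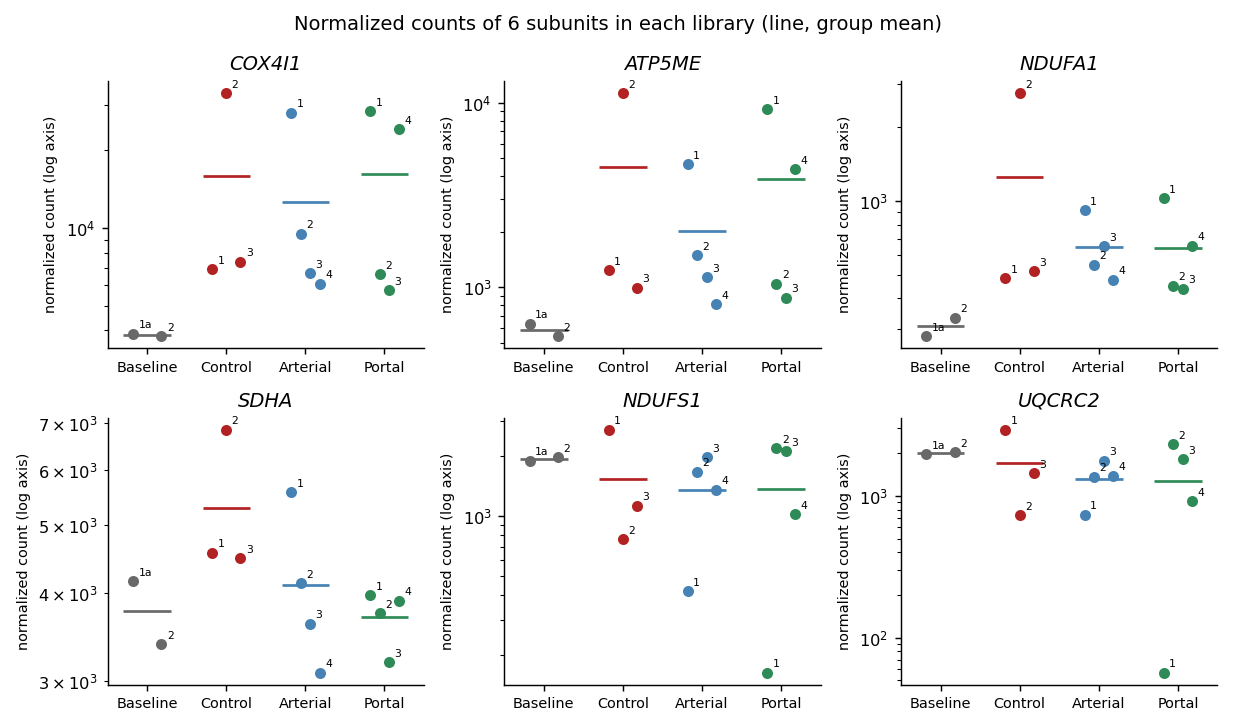
Normalized counts (log axis) of 6 subunits in each library, labelled by replicate, with the group mean as a line. COX4I1, ATP5ME and NDUFA1 are lowest in the 2 baseline livers and highest in libraries that stood apart, whereas NDUFS1 and UQCRC2 have their lowest values there, down to 162.4 and 56.64 in portal infusion 1.

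The 78 genes were most widely spread in the 4 libraries that stood apart, and so were all genes tested. The SD of the deviations from each gene's mean was 1.20 in portal infusion 1, 0.832 in ischemic control 2, 0.806 in arterial infusion 1 and 0.805 in portal infusion 4, where it was 1.90, 1.15, 1.36 and 1.40 over all genes tested. These libraries were also among those with the fewest genes detected (13581 in portal infusion 1, 14264 in portal infusion 4, 15460 in arterial infusion 1 and 16993 in ischemic control 2, against 15831 to 20282 in the other 9). The part of that difference in the levels given here was not tested.

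Other genes of the pathway, from lists of names, did not all stand with the subunits in controls against baseline, and 0 of them passed the test. Of 45 assembly factors outside the rule 27 were higher (median log2 fold change 0.22), and 3 had an unadjusted p below 0.05 by edgeR's test, all higher, against 4.37% of all genes: COX17, a copper chaperone of complex IV, COX14, and SDHAF2, which helps attach the flavin of SDHA. Of 23 electron carriers and entry enzymes 11 were higher (median −0.02), with CYC1, the cytochrome c1 subunit of complex III, at 1.31 ± 0.58 (SE). Of 21 regulators of mitochondrial transcription and biogenesis 16 were lower (median −0.56), with PPARA, a regulator of fatty acid oxidation, at −1.87 ± 0.65 (SE, unadjusted p = 0.0115 and adjusted p = 0.978 by edgeR's test). Another of them, ESRRA, was higher in every control (4387, 2527 and 4027 normalized counts) than at baseline (2273 and 1638). Of the 13 subunit genes of the mitochondrial genome 9 were higher (median 0.33).

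Markers of cell types also differed in level between controls and baseline, with 0 of them past the test. All 4 neutrophil markers tested were higher in controls (median log2 fold change 2.23), with summed normalized counts from 961.11 to 1123.5 at baseline and from 1369.4 to 11732 in controls, and MPO at 0 reads in 9 of 13 libraries. All 4 erythroid markers tested were higher (1.96, summed level 1012 to 1871.4 against 1378.1 to 29263), as were 6 of 8 macrophage markers (0.69, 21068 to 34864 against 35798 to 63281) and 7 of 7 T and NK cell markers (0.56, 567.72 to 611.85 against 403.46 to 1865.2). Of 12 hepatocyte markers 4 were higher (−0.03, 1331800 to 2940900 against 1146800 to 1925000), of 6 endothelial markers 2 (−0.31), of 8 stellate and fibroblast markers 3 (−0.24) and of 5 cholangiocyte markers 3 (0.85). Their part in the levels of the respiratory chain genes was not tested.

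Arterial infusion was compared with ischemic control to see what cells given through the hepatic artery went with. Of the 78 genes 26 were higher and 52 lower after infusion, with a median log2 fold change of −0.15 against 0.01 over all genes, of which 50.8% were higher. An adjusted p below 0.05 was found for 0 of 78 by edgeR's test (background 0%), and an unadjusted p below 0.05 for 1 of 78 (1.57% of all genes). That gene was NDUFAF8, with 494.3, 390, 328.5 and 231.6 normalized counts after arterial infusion (log2 fold change −1.51 ± 0.67, SE, unadjusted p = 0.0403 and adjusted p = 1 by edgeR's test). Control 1 (344.1) lay within that range, and controls 2 and 3 (2296 and 506.6) lay above it. NDUFAF8 stood at −0.27 without control 2. The groups overlapped for all 78 genes, while 1.61% of all genes were higher and 1.57% lower without overlap. The next by p were NDUFA11 (−1.23 ± 0.70, SE), NDUFA1 (−0.91 ± 0.53, SE) and COX5B (−0.88 ± 0.53, SE). Without control 2 these 3 stood at 0.35, 0.34 and 0.29, the median was 0.29 and 60 of 78 genes were higher. The direction therefore rested on 1 control liver, and without all 4 libraries that stood apart the median was 0.03 with 43 higher.

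Portal infusion against ischemic control showed the same dependence. Of the 78 genes 12 were higher and 66 lower, with a median log2 fold change of −0.20 against −0.02 over all genes (48.1% higher), and 0 of 78 had an adjusted p below 0.05 by edgeR's test (background 0%). Without control 2 the median was 0.23 and 52 of 78 were higher, and without the 4 libraries that stood apart it was 0.08 with 45 higher. The 1 gene with an unadjusted p below 0.05 (2.79% of all genes) was COX4I2 (unadjusted p = 0.0185, adjusted p = 1 by edgeR's test), whose reads after portal infusion were 0, 3, 0 and 0, below all 3 controls. No fold change is given for it because 3 of these 4 libraries were at 0 reads. SDHA had 3973, 3743, 3186 and 3901 normalized counts after portal infusion, all below the 3 controls (log2 fold change −0.55 ± 0.32, SE, adjusted p = 1 by edgeR's test, and −0.36 without control 2). In the exact two-sided permutation test COX4I2 and SDHA had a p of 0.0286, the smallest that 4 against 3 livers allow, and no other gene of the 78 was under 0.05. These exact p-values are not adjusted for the 78 genes compared. COX4I2 passed the filter on low counts mainly through its reads in controls, and it did not pass when the infused groups were fitted alone. Its p-values are therefore no support for a lower level after infusion. Groups did not overlap for COX4I2 and SDHA, both lower (2.33% of all genes were lower and 1.39% higher without overlap).

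The assembly factor NDUFAF7, the fourth gene of that comparison by p, was higher after portal infusion with 274.4, 516.5, 456.5 and 393.8 normalized counts against 342.5, 290.7 and 130.8 in controls, and the groups overlapped (log2 fold change 0.67 ± 0.42, SE, 0.32 without control 3 and 1.04 without the 4 libraries that stood apart). NDUFA1 stood at −0.97 ± 0.53 (SE), and at 0.28 without control 2.

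With the 8 infused livers together against the same 3 controls, 16 of the 78 genes were higher and 62 lower (median log2 fold change −0.19 against −0.02 over all genes, 47.9% of them higher), and 0 had an adjusted p below 0.05 by edgeR's test (background 0%). Without control 2 the median was 0.25 with 56 higher, and without the 4 libraries that stood apart 0.03 with 47 higher. COX4I2 was again the 1 gene with an unadjusted p below 0.05 (p = 0.0272, 2.14% of all genes), with an exact two-sided permutation p of 0.0121, and its range in infused livers (0 to 16.77 normalized counts) overlapped that of controls (10.28 to 32.52), as did those of the other 77 genes (0.34% of all genes were lower and 0.225% higher without overlap). SDHA was at −0.46 ± 0.28 (SE, exact permutation p = 0.0545), and at −0.27 without control 2. The limit given above for the p-values of COX4I2 holds here too. These 3 comparisons share the same 3 control livers and are not independent.

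Markers of cell types differed in level in these comparisons too, with 0 past the test. Macrophage markers were lower in 7 of 8 after arterial infusion (median log2 fold change −0.75) and in 7 of 8 after portal infusion (−0.97), against the same 3 controls. In each, 4 of 8 were at an unadjusted p below 0.05 by edgeR's test, against 1.57% and 2.79% of all genes. The summed normalized counts of macrophage markers were 35798 to 63281 in controls, 23368 to 31800 after arterial and 23775 to 30664 after portal infusion, without overlap. After portal infusion stellate and fibroblast markers were lower in 6 of 8 (−1.27, with 3 at an unadjusted p below 0.05 against 2.79% of all genes, summed level 3079.3 to 17969 against 7869.4 to 36562), endothelial markers in 5 of 6 (−0.63) and neutrophil markers in 4 of 4 (−1.05). Hepatocyte markers were higher in 6 of 12 after arterial (0.07) and in 4 of 12 after portal infusion (−0.08). Their part in the levels of the respiratory chain genes was not tested.

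**Figure D4:**
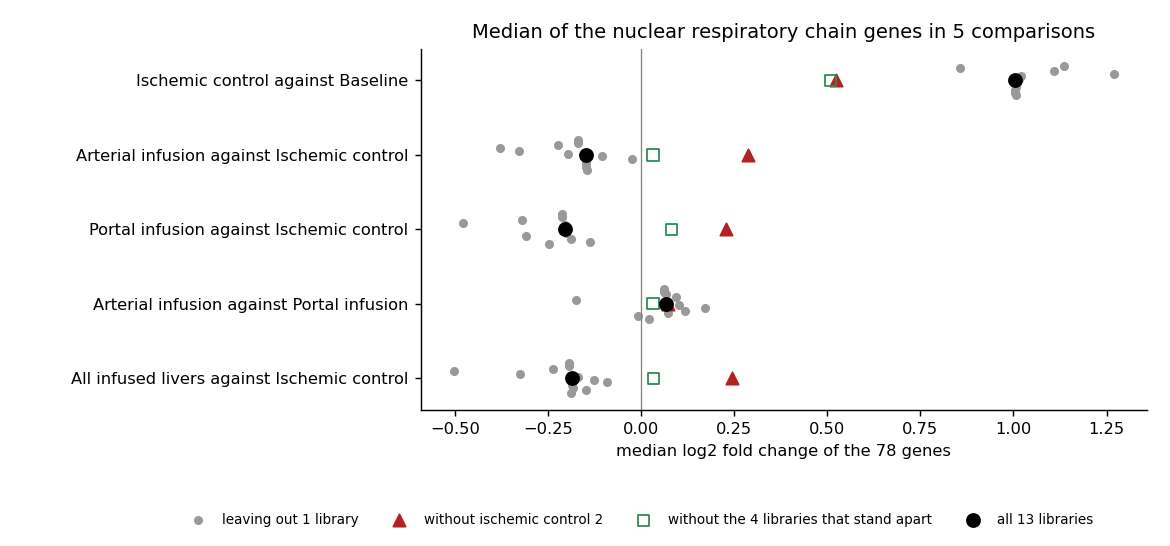
Median log2 fold change of the 78 genes in 5 comparisons with all 13 libraries (black), with 1 library left out (grey), without ischemic control 2 (red triangles) and without the 4 libraries that stood apart (green squares). The comparison with baseline stays above 0 throughout, at 0.52 without control 2, while the 3 comparisons with ischemic control go from below 0 (−0.15, −0.20 and −0.19) to above 0 (0.29, 0.23 and 0.25) without control 2.

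The routes of infusion were compared directly, a contrast that does not use the controls. After arterial infusion 44 of the 78 genes were higher than after portal infusion and 34 lower, with a median log2 fold change of 0.07 (52.9% of all genes were higher), and 0 had an adjusted p below 0.05 by edgeR's test (background 0%). The 1 gene with an unadjusted p below 0.05 (2.4% of all genes) was NDUFAF5, an assembly factor that modifies the core of complex I (chromosome 17, 22480344 to 22508804). It had 296.2, 353.8, 187.4 and 165.6 normalized counts after arterial and 139.7, 118.6, 160.5 and 30.67 after portal infusion, without overlap. Its log2 fold change was 1.16 ± 0.53 (SE, unadjusted p = 0.045 and adjusted p = 1 by edgeR's test, and 0.74 without the 4 libraries that stood apart), and its exact two-sided permutation p was 0.0286, the smallest that 4 against 4 livers allow. It was the 1 gene of the 78 whose groups did not overlap (0.91% of all genes were higher without overlap and 0.498% lower). COX6C (chromosome 4, 37074619 to 37089364) had 5310, 2487, 2207 and 2068 after arterial and 1854, 2259, 1576 and 1919 after portal infusion (0.68 ± 0.40, SE, and 0.27 without arterial infusion 1), with arterial infusion 1 far above the others. In the test of any difference among the 4 groups 0 of 78 had an adjusted p below 0.05 and 1, NDUFAF8, had an unadjusted one below it, against 2.39% of all genes.

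The subunit genes of the mitochondrial genome were also set against controls in infused livers. The 13 genes were all higher than in controls after arterial infusion (median log2 fold change 1.08) and after portal infusion (0.70), where the nuclear medians were −0.15 and −0.20 with all libraries and 0.29 and 0.23 without control 2, and 0 of the 13 had an adjusted p below 0.05 by edgeR's test. The summed normalized count of the 13 was 1667900 and 1278400 at baseline and 2070100, 1607100 and 1758400 in controls. Arterial infusions 1 to 4 had 2013900, 7354800, 2171100 and 3902000. Portal infusions 1 to 4 had 1443700, 3493900, 2934800 and 4203000. The highest sum, in arterial infusion 2, was in a library whose nuclear genes were near their mean (0.15), and arterial infusion 1 and portal infusion 1, where the nuclear genes were high, had the 2 lowest mitochondrial sums of the infused livers, while portal infusion 4, also among the libraries that stood apart, had the second highest. The difference between the nuclear and the mitochondrial genes was not tested.

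**Figure D5:**
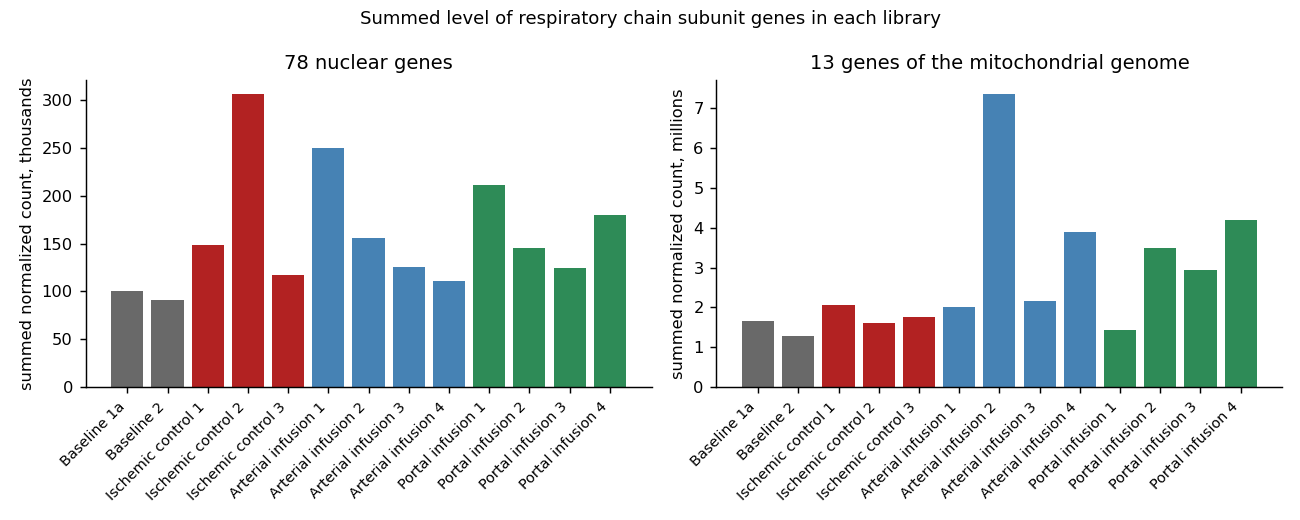
Summed normalized counts of the 78 nuclear genes (left) and of the 13 subunit genes of the mitochondrial genome (right) in each library, coloured by group. The nuclear sum is lowest in the baseline livers (100580 and 91116) and highest in ischemic control 2 (305990), whereas the mitochondrial sum is highest in arterial infusion 2 (7354800).

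Livers of a group differed among themselves. Within groups the median SD of the 78 genes was 0.158 log2 units at baseline, 0.748 in ischemic controls, 0.532 in the arterial infusion group and 0.638 in the portal infusion group, against 0.273, 0.702, 0.73 and 0.963 for all genes tested. The 4 genes that were not tested were COX6A1, COX7B2 and COX8H, at 0 reads in all 13 libraries, and COX6B2, at 0 to 13 reads.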

How the data were processed

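RNA was measured in 13 pig liver libraries in 4 groups given by the sample labels. The authors enriched messenger RNA on poly-T beads, made non-directional libraries, used HISAT2 to map reads to Sscrofa11.1 and FeatureCounts to count them, and deposited raw counts, 1 column per library and 35670 rows. How reads with several possible genes were counted is not given in the sources used here, so that close relatives (COX6A1 and COX6A2, ATP5MC1 to ATP5MC3) are uncertain, and reads of overlapping antisense genes cannot be told apart. The labels and the paper name different RNA extraction kits. Separate libraries were taken as separate livers in the main test. The paper describes biopsies before clamping and at 6 h of reperfusion, and its animal groups include no baseline group. The baseline livers were thus clamped later, and which of them share animals with the 6 h libraries is not given.

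Totals were 18975413 to 35949178 reads. Intervals for counting error were not used, since the spread between livers was far wider and the reads carry no molecular identifiers. The main test was edgeR 4.0.16 in R 4.3.3 (quasi-likelihood test, TMM, filterByExpr, all 4 groups in 1 fit, Benjamini-Hochberg adjustment over 16481 genes, threshold 0.05). The standard error is the log2 fold change divided by the square root of the F statistic. Normalized counts are counts divided by DESeq2 1.42.0 size factors, and exact permutation tests (SciPy 1.17.1) of single genes used log2(normalized count + 1). The edgeR step was tested on simulated data, in which a log2 change of 3 was given to 200 of 16481 genes. Alternatives were DESeq2, edgeR on the compared groups alone, RLE and upper quartile scaling, other filters, mitochondrial and small RNA rows left out, a replicate block and each library left out. limma 3.58.1 voom with quality weights, the 4 libraries left out together and all 11 livers at 6 h were added after the data were seen.

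The genes and lists were chosen with earlier results of these data known. Named genes are those with an adjusted p under 0.05 (0 found), the 4 with the smallest unadjusted p and the 1 with the largest fold change in each comparison, and a list fixed by role. Other genes are named as members of a count, chosen after their values were seen. Genes of RefSeq were matched by symbol for 55 of 82 rows, so that a check on gene length is void, and levels were not compared between genes per length. An item of the list fixed by role is not reported here.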

Additional observations from a re-analysis of the deposited data

Results flagged for a closer look

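In the 30 named genes tested, the arterial group, the portal group and all 8 infused livers were searched for 1 library far from the others, 90 sets of values in all. Chance flags about 1 in 20 of independent sets of normally distributed values. These were counts not put on a log scale, and the sets of all infused livers held both groups, so that rate need not hold here. There were 11 such values, 10 of them the highest value of arterial infusion 1 or portal infusion 1. Arterial infusion 1 was the highest for COX6C (5310 normalized counts, both within its group and among all infused livers), COX4I1 (27970), COX8A (5950) and NDUFV1 (4366) within the arterial group, and SDHA (5583) among all infused livers. Portal infusion 1 was the highest for COX7A1 (937.6) within the portal group, NDUFA4L2 (149.8) both within its group and among all infused livers, and ATP5ME (9225) among all infused livers. Portal infusion 2 was the highest for COX4I2 in the portal group, with 2.802 normalized counts against 0 in the other 3 livers, which is 3 reads.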

How the results depend on the processing

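Of the respiratory chain genes 0 had an adjusted p below 0.05 in all 6 comparisons, with each alternative and with any 1 library left out, except that DESeq2 fitted to controls and baseline alone called 1, ATP5ME (166 of 23625 genes in all). Over all genes the most calls otherwise came with no filter on low counts (95 of 24918 among the 4 groups). With 1 library left out the median log2 fold change ranged from 0.52 to 1.27 for controls against baseline, from −0.38 to 0.29 for arterial and from −0.48 to 0.23 for portal infusion against control, from −0.18 to 0.17 between the routes, and from −0.50 to 0.25 for all infused livers against control, where each highest value against control was the one without control 2. Without the 4 libraries that stood apart the median for controls against baseline was 0.51. Signs turned for single genes named here, none of them called. With 1 library left out, against baseline, NDUFS1 ranged from −1.06 to 0.020, UQCRC2 from −0.89 to 0.16, COX7A1 from −0.33 to 1.34, SDHD from −0.051 to 0.44 and UQCRFS1 from −0.13 to 0.48. In arterial infusion against control NDUFA11 ranged from −1.75 to 0.35, NDUFA1 from −1.33 to 0.34 and COX5B from −1.29 to 0.29, in portal infusion NDUFA1 from −1.42 to 0.28, and in all infused livers NDUFA1 from −1.38 to 0.31 and NDUFAF8 from −1.36 to 0.28. These turns came without control 2, except for SDHD and UQCRFS1 (without control 1). Without the 4 libraries NDUFS1 (0.0097), UQCRC2 (0.15) and COX7A1 (−0.35) turned against baseline, NDUFA1 (0.16) and COX5B (0.15) in arterial infusion, NDUFA1 (0.0020) in all infused livers and NDUFAF8 (0.23) between the routes. Voom turned NDUFAF8 between the routes (0.13), and all 11 livers turned COX4I2 (−0.42) against baseline. The causes were not tested. Libraries of the same replicate number did not deviate together as a set (16 pairs, median r −0.0342, from −0.422 to 0.428, against −0.0124 in 46 other pairs). This cannot decide whether samples share animals. The groups are small, and the deviations of the 2 baseline livers mirror each other (r −0.0887 and 0.0887 with ischemic control 1). With the replicate number as a block 0 of 78 genes were called in each comparison, the median for controls against baseline was 1.11, and an unadjusted p below 0.05 was found for 38 of the 78 genes (6.85% of all genes) in place of 20 (4.37%). RLE and upper quartile scaling changed no call and turned the direction of no median.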
